A study of Rattus norvegicus with 9 samples.

Results

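The carbonic anhydrase genes Car3, Car2, Car4 and Car5a were followed in rat liver on 9 one-colour arrays. Every probe set with one of these 4 symbols in the platform annotation was taken, which gave 6 probe sets of 15923: 2 for Car3, 2 for Car2, 1 for Car4 and 1 for Car5a. The genes were chosen by results of these arrays that were already known, among them the low Car3 signal of the burned group. Their levels and differences are therefore given as a description without a test, and nothing is supported with them. The arrays fall into 3 groups of 3, all total RNA from whole liver. Going by the group names, the Sham-Sham livers had sham procedures only, the Sham-CLP livers a sham procedure with CLP, and the Burn-CLP livers a burn with CLP. CLP is not spelled out in the labels and in rodent work commonly means cecal ligation and puncture, which starts an abdominal infection. Strain, sex, age, burn size and time of sampling are not in the labels, nor is it stated that arrays of a group are separate animals. Spread and p-values then measure only the variation between these samples, which may be technical.

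Carbonic anhydrases are zinc enzymes that interconvert carbon dioxide and bicarbonate. Car2 is a fast cytosolic form found in many cells, Car4 is anchored to the outer cell surface, and Car5a lies in the mitochondria of hepatocytes, where it supplies bicarbonate to pyruvate carboxylase and carbamoyl phosphate synthetase. Car3 is a cytosolic form with weak hydratase activity that is abundant in liver, skeletal muscle and fat. In the rat its liver form is known to be far more abundant in males and to depend on growth hormone. The family also holds Car14, a membrane-spanning form, and Car8, Car10 and Car11, which have lost the catalytic activity. In the GRCr8 RefSeq annotation Car2, Car3, Car1 and Car13 are neighbours on chromosome 2, while Car4 lies on chromosome 10 and Car5a on chromosome 19.

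The values are linear intensities that had been scaled per array, with a mean after trimming 2% at each end of 500.14 to 500.17 and medians of 205 to 268.1. Signals here are quantile-normalised intensities, and a signal under 64.31, the 20th percentile of all values, was raised to that floor on the way to log2 values. Testing needed 3 or more of the 9 arrays above the floor, which left 13535 probe sets and 5 of the 6 members. Sham-Sham 1 was the least like the rest: its correlations with the other 8 arrays averaged 0.89, where the others averaged 0.922 to 0.949. The control for 5S ribosomal RNA, in intensities before quantile normalisation, read 68.2 to 157.8 on the Sham-Sham arrays. It read 153.1 to 218.5 on those of Sham-CLP and 185.7 to 247.4 on those of Burn-CLP. Its part in the differences below was not tested. Hepatocyte markers were bright on all arrays, with sums over 11 genes of 252100 to 260700, 253300 to 262300 and 250300 to 258700 in the 3 groups in that order. Precision is limited by the number of arrays.

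Car3 was lower in burned liver with CLP than in either other group. At the probe set 1367896_at the Sham-Sham arrays read 8310, 6396 and 3895, the Sham-CLP arrays 1658, 1856 and 5484, and the Burn-CLP arrays 162.2, 169.7 and 1430. All Burn-CLP arrays lay below all others, and the Sham-CLP arrays overlapped the Sham-Sham arrays through Sham-CLP 3. The mean signals were 6200 ± 2214 in Sham-Sham, 2999 ± 2154 in Sham-CLP and 587.4 ± 730 in Burn-CLP (SD, n = 3 each). In bulk liver RNA, fewer cells of a type and less RNA per cell cannot be told apart.

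The other Car3 probe set, 1386977_at, read 1529, 1535 and 955.2 in Sham-Sham, 779.4, 715.1 and 1206 in Sham-CLP, and 126.4, 152.1 and 350.7 in Burn-CLP. The highest array of each CLP group was the same at both probe sets: Sham-CLP 3 was the highest of its group and Burn-CLP 3 the highest of its own. Over the 9 arrays the log2 signals of both Car3 probe sets correlated at 0.978, and at 0.968 after each group's mean was taken away. These arrays share their normalisation, and both probe sets are annotated to the same transcript, so this describes their agreement and is not a test.

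**Figure D1:**
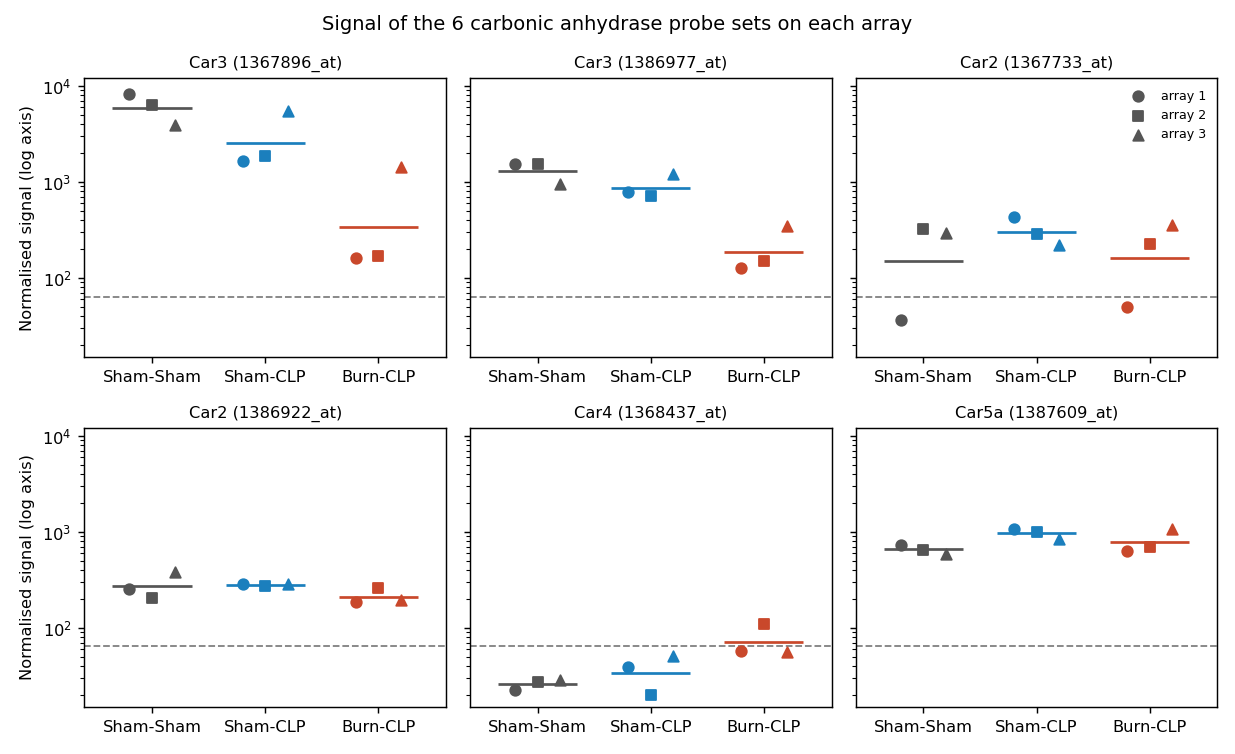
Normalised signal (log axis) of the 6 probe sets of Car3, Car2, Car4 and Car5a on each array, by group; marker shapes are array numbers, bars are geometric means of 3 arrays before the floor, and the dashed line is the floor at 64.31. At both Car3 probe sets the 3 Burn-CLP arrays lie below all others, and Car4 is above the floor on 1 array.

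The log2 difference between Burn-CLP and Sham-Sham was -4.12 ± 0.80 (SE, n = 3 per group) at 1367896_at, a 17.4-fold lower signal, and -2.79 ± 0.39 at 1386977_at, a 6.93-fold lower signal. The first was the lowest of all 13535 differences in this comparison and the second ranked 11 from the bottom. The 2 probe sets thus put the change at different sizes. Against Sham-CLP, Burn-CLP was lower by 7.54-fold (-2.91 ± 0.80) and 4.64-fold (-2.21 ± 0.39). Sham-CLP stood below Sham-Sham by only 2.31-fold (-1.21 ± 0.80) and 1.49-fold (-0.58 ± 0.39), with overlapping arrays. The comparisons share arrays and are not independent of one another.

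Car3 also varied inside the CLP groups, more widely at 1367896_at than at 1386977_at. At 1367896_at the brightest array was 8.82 times the dimmest in Burn-CLP, with an SD of 1.80 on the log2 scale, where 99.9% of tested probe sets had a smaller SD and the median SD was 0.24. In Sham-CLP the range was 3.31-fold and the SD 0.95, with 99.3% of probe sets below it. In Sham-Sham the range was 2.13-fold and the SD 0.56, with 77.6% below it. At 1386977_at the range was 2.78-fold in Burn-CLP, with an SD of 0.785 and 96.6% below it. There the Sham-CLP range of 1.69-fold (SD 0.404, 84.6% below) was close to the Sham-Sham range of 1.61-fold (SD 0.394, 60.3% below). Single arrays moved the sizes accordingly. Without Burn-CLP 3 the difference from Sham-Sham at 1367896_at was -5.16 ± 0.52 and that from Sham-CLP -3.96 ± 0.52. Without Sham-CLP 3 the difference between Sham-CLP and Sham-Sham at 1367896_at was -1.75 ± 0.84. Without Sham-Sham 1, the array that stood apart, the Burn-CLP difference from Sham-Sham was -3.91 ± 0.92 at 1367896_at and -2.71 ± 0.44 at 1386977_at.

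Car2, the neighbour of Car3 on chromosome 2, gave no common picture at its 2 probe sets. At 1386922_at the signals were 256.3, 206 and 379.3 in Sham-Sham, 283.9, 271.4 and 288.4 in Sham-CLP, and 184.7, 260.5 and 192.5 in Burn-CLP. The Burn-CLP arrays were below all Sham-CLP arrays by -0.42 ± 0.24 on the log2 scale, and overlapped Sham-Sham (-0.37 ± 0.24). At 1367733_at the Sham-Sham arrays read 36.9, 323.4 and 294.4, the Sham-CLP arrays 430, 286.9 and 219.8, and the Burn-CLP arrays 50.3, 229.1 and 359. Sham-Sham 1 and Burn-CLP 1 were under the floor at this probe set and every group overlapped every other. Its differences had SEs of 0.72, and the one between Sham-CLP and Sham-Sham went from 0.72 to -0.04 ± 0.63 without Sham-Sham 1. The correlation between both Car2 probe sets over the 9 arrays was 0.288, although the annotation lists the same accession for both.

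Car4, the surface form, was under the floor on all Sham-Sham arrays (22.7, 27.6 and 28.6 before flooring), on all Sham-CLP arrays (39.4, 20.1 and 50.6) and on 2 Burn-CLP arrays (58 and 55.7). Burn-CLP 2 read 109.7. With 1 array above the floor Car4 was not tested, and values under the floor have no order.

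Car5a, the mitochondrial form, had a higher mean signal in both CLP groups than in Sham-Sham. Its signals were 733.4, 648.2 and 589 in Sham-Sham, 1072, 997.5 and 831.2 in Sham-CLP, and 637.4, 694.6 and 1061 in Burn-CLP. All Sham-CLP arrays were above all Sham-Sham arrays, a difference of 0.56 ± 0.22 on the log2 scale or 1.47-fold. The Burn-CLP arrays spanned both other groups, with a difference of 0.25 ± 0.22 from Sham-Sham and -0.31 ± 0.22 from Sham-CLP. Burn-CLP 3, the array with the highest Car3 of its group, had the highest Car5a of its group too. Without that array the Burn-CLP signal differed from Sham-Sham by 0.03 ± 0.20 and from Sham-CLP by -0.53 ± 0.20.

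The following counts over the 5 tested members are a description, since the rule used these contrasts. The limma fit over all probe sets called 1 in Burn-CLP against Sham-Sham, Car3 1386977_at, at an adjusted p under 0.05, where 0.746% of all tested probe sets were called. The groups did not overlap for 2 of the 5, both Car3, against 21.5% of all probe sets. At an unadjusted p under 0.05 it was 2 of 5, beside 19.9% of all. In Burn-CLP against Sham-CLP it called 0 of 5, beside 0.0148% of all, and 2 of 5 at an unadjusted p under 0.05, beside 9.09% of all, and 3 of 5 did not overlap, beside 18.8% of all. In Sham-CLP against Sham-Sham it called 0 of 5, beside 0.0591% of all, and 1 of 5 at an unadjusted p under 0.05, beside 11.7% of all, and 1 of 5, Car5a, did not overlap, beside 16.7% of all. The median log2 difference over the 5 was 0.05, -0.37 and -0.79 for Sham-CLP and Burn-CLP against Sham-Sham and for Burn-CLP against Sham-CLP, where the medians of all tested probe sets were 0.005, 0.009 and 0.019. Since the genes were chosen with these values known, nothing is read from these counts. The call of Car3 1386977_at was lost without Sham-Sham 1, Sham-Sham 2, Burn-CLP 1 or Burn-CLP 2, without the filter, and in a fit of the 2 groups alone. Car3 1367896_at, not called with all arrays, was called in Burn-CLP against Sham-Sham without Sham-Sham 3 or without Burn-CLP 3. Those fits called 645 and 221 of all probe sets, where 101 were called with all arrays. Without Burn-CLP 3 both Car3 probe sets were called in Burn-CLP against Sham-CLP too, in a fit that called 36 of all. These calls use the values that chose the genes, so they are a description as well, and nothing is read from them.

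**Figure D2:**
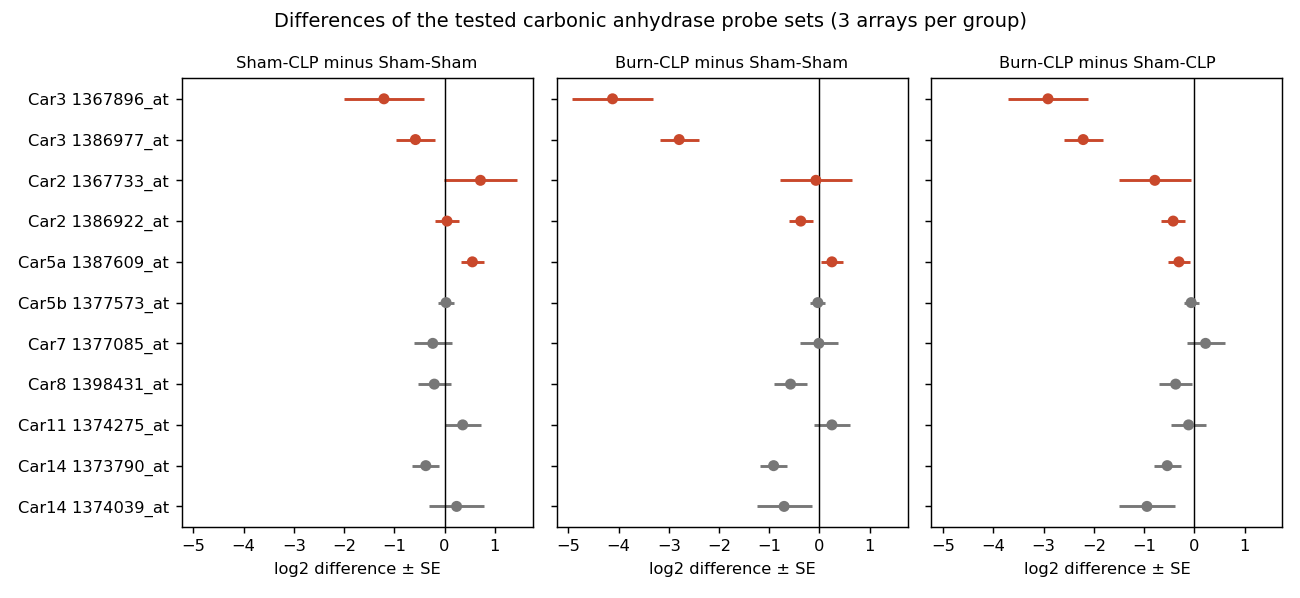
log2 difference with its SE (points and bars) for the 11 tested carbonic anhydrase probe sets in each of the 3 comparisons, 3 arrays per group; red marks the 5 tested probe sets of Car3, Car2 and Car5a, grey the other family members. Both Car3 probe sets lie far below 0 in the comparisons with Burn-CLP (-4.12 and -2.79 against Sham-Sham), while the points of all other genes lie between -0.94 and 0.72 in the 3 comparisons.

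Of 12 other carbonic anhydrase genes listed, 8 had a probe set and 5 were tested. None (0 of 5) was called in any of the 3 comparisons by limma. Without adjustment, p was under 0.05 for 1 in Burn-CLP against Sham-Sham, Car14, beside 19.9% of all tested probe sets. It was under 0.05 for 0 in Sham-CLP against Sham-Sham, beside 11.7% of all, and for 0 in Burn-CLP against Sham-CLP, beside 9.09%. Their median log2 difference was -0.20 for Sham-CLP against Sham-Sham, -0.03 for Burn-CLP against Sham-Sham and -0.11 for Burn-CLP against Sham-CLP. Car14 1373790_at read 770, 873.9 and 788.8 in Sham-Sham, 478.1, 650.8 and 785.6 in Sham-CLP, and 391.7, 325.7 and 625.1 in Burn-CLP. The Burn-CLP arrays were below all Sham-Sham arrays, with a difference of -0.91 ± 0.27 that did not pass (adjusted p = 0.13, limma). As for Car3, the third array was the highest of both CLP groups. Its other probe set, 1374039_at, read 108.4, 150.1 and 653.1 in Burn-CLP and 353.9, 352.5 and 367.2 in Sham-Sham, so that Burn-CLP 3 was above and the other 2 below the controls (-0.70 ± 0.55, adjusted p = 0.49).

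Over the 9 arrays Car3 1367896_at correlated at 0.945 with Car14 1373790_at and at 0.772 with Car14 1374039_at, and at 0.869 and 0.912 once group means were removed. With Car8, whose protein is not catalytic, the correlation was 0.753, and 0.69 without group means. Car8 differed by -0.58 ± 0.33 between Burn-CLP and Sham-Sham (adjusted p = 0.35). With Car5a the correlation was 0.073 over the 9 arrays but 0.621 once group means were removed. Car11 (0.25 ± 0.36), Car7 (-0.01 ± 0.38) and Car5b 1377573_at (-0.03 ± 0.15) differed from Sham-Sham by less than their SE in Burn-CLP. Car5b had 3 of 9 arrays above the floor, and Car1, Car6 and Car10 were not tested, with 2, 0 and 2 arrays above it.

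The probe sets most like Car3 1367896_at over the 9 arrays, among 8602 candidates above the floor on every array, were Hmgb3 (r = 0.982), Pklr (0.982), Psmb8 (0.977), Gckr (0.976) and Calm2 (0.972). These are descriptions of 9 arrays in 3 groups, picked as the highest of many, and carry no test. Hmgb3 encodes a chromatin protein, Pklr the liver form of pyruvate kinase, Psmb8 an immunoproteasome subunit, Gckr the glucokinase regulatory protein and Calm2 a calmodulin. Pklr read 868.1, 941.4 and 745.1 in Sham-Sham, 616.8, 681.4 and 817.1 in Sham-CLP, and 297, 241.5 and 580.6 in Burn-CLP. Gckr read 2462, 2481 and 2517, then 1737, 1702 and 2355, then 972.1, 752.5 and 1705. In both, Sham-CLP 3 and Burn-CLP 3 were the highest of their groups. After removal of group means the 5 correlations with Car3 were between 0.898 and 0.94.

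For Car3 1386977_at the 5 were Dpt (0.987), C2cd2 (0.984), Gypc (0.971), Hmgb3 (0.968) and Tp53inp2 (0.967), so that Hmgb3 stood in both sets. Dpt encodes the matrix protein dermatopontin. Its signals were 6748, 6705 and 6730 in Sham-Sham and 2717, 2808 and 4171 in Burn-CLP, a log2 difference of -1.09 ± 0.20 that is a description, since the likeness to Car3 chose the gene. For Car5a the most alike were Pheta1 (0.942), C1galt1 (0.918), Mkks (0.913), Pgp (0.909) and Abcc9 (0.906). For the 2 Car2 probe sets the highest were Vasn (0.959) at 1367733_at and Chrna2 (0.944) at 1386922_at, and no gene was in both sets of 5.

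**Figure D3:**
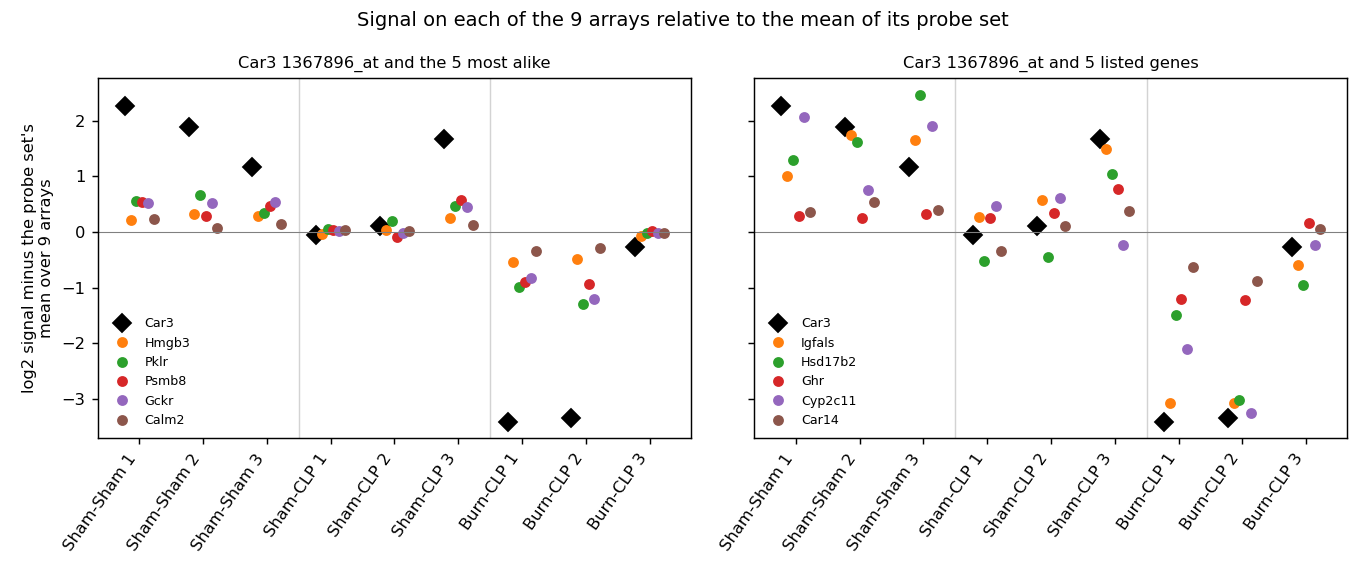
log2 signal, floored and minus the mean of the probe set over 9 arrays, of Car3 1367896_at (black diamonds) with the 5 most alike probe sets (left) and with 5 listed genes (right), per array. In Burn-CLP the third array is the highest for Car3 and for each of the 10 other probe sets, and Car3 spans a wider range than the 5 most alike. The left 5 were chosen by their likeness to Car3 and the right 5 were picked for display, so their common order is no test. Other growth hormone and sex-dependent genes, among them Socs2, Cyp2c12 and Onecut1, were lowest on Burn-CLP 3 of the Burn-CLP arrays (197.2, 937.1 and 147.8).

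Growth hormone and sex-dependent liver genes were listed because Car3 is known to belong among them. Like the other gene lists, this one was chosen with earlier results of these data known. Its counts and p-values are therefore no independent support. Of 30 listed, 26 were tested, and in Burn-CLP against Sham-Sham 2 fell, 0 rose and the median log2 difference was -0.32, where 0.421% of all tested probe sets fell and the median was 0.01. Unadjusted, 9 were lower and 1 higher at a p under 0.05, which 19.9% of all tested probe sets reached in either direction. Igfals, the gene of the acid-labile subunit that keeps insulin-like growth factors in the blood, read 1084, 1813 and 1702 in Sham-Sham, 653.5, 801.5 and 1518 in Sham-CLP, and 27.4, 15.7 and 357.3 in Burn-CLP. It fell by 3.71 ± 0.62 (adjusted p = 0.0361, limma), with Burn-CLP 1 and 2 at the floor. The gene of a sex steroid dehydrogenase, Hsd17b2, read 1270, 1603 and 2879, then 362.7, 383.7 and 1069, then 184.7, 26.5 and 270.5, and fell by 3.61 ± 0.58 (adjusted p = 0.0352) with Burn-CLP 2 at the floor. In both, the third array was the highest of each CLP group, as for Car3.

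Ghr, the growth hormone receptor gene, read 1880, 1828 and 1914 in Sham-Sham, 1831, 1953 and 2620 in Sham-CLP, and 662.5, 661.2 and 1718 in Burn-CLP, where it differed from Sham-CLP by -1.21 ± 0.34 without passing (adjusted p = 0.363). Cyp2c11, the male-predominant cytochrome P450 gene of rat liver, was picked after its values were seen. It read 14640, 5874 and 13050, then 4857, 5364 and 2957, then 811.4, 367.2 and 2990, a difference of -3.43 ± 0.67 between Burn-CLP and Sham-Sham (adjusted p = 0.0538). Unlike Car3, it was lowest in Sham-CLP 3 of the Sham-CLP arrays. Cish, a feedback inhibitor gene of cytokine receptors, was higher on all Sham-CLP than on all Sham-Sham arrays (1.22 ± 0.37, adjusted p = 0.309). It was also higher on all Burn-CLP than on all Sham-Sham arrays (0.669 ± 0.365, adjusted p = 0.336, limma). In Sham-CLP against Sham-Sham 0 of 26 were called by limma (1 higher and 2 lower at an unadjusted p under 0.05), and in Burn-CLP against Sham-CLP 0 of 26 (0 higher and 5 lower). Of all tested probe sets 11.7% and 9.09% had an unadjusted p under 0.05 in these 2 comparisons. The 2 falls were lost, leaving 0 calls, when array 1 or array 2 of any group was left out, and 4 were called without Burn-CLP 3. They were also lost with the floor at the 10th percentile, without the filter and in a fit of the 2 groups alone. Without Burn-CLP 3, 2 genes of the list were called in Burn-CLP against Sham-CLP.

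Enzymes that consume bicarbonate were all measured, 9 of 9, and 0 were called in any comparison by limma. Pc, the pyruvate carboxylase gene that uses the product of Car5a, differed by -0.16 ± 0.17 between Burn-CLP and Sham-Sham. Cps1, the carbamoyl phosphate synthetase of the urea cycle, read 12510, 16600 and 14500 in Sham-Sham and 22040, 20700 and 17810 in Burn-CLP, with no overlap (0.48 ± 0.17, adjusted p = 0.185). Acaca, acetyl-CoA carboxylase, read 697.9, 681.1 and 745.5 in Sham-Sham, 1393, 1229 and 1055 in Sham-CLP, and 953.2, 833 and 1002 in Burn-CLP. Its Sham-CLP difference was 0.78 ± 0.17 (adjusted p = 0.23) with the Burn-CLP arrays between both other groups. At an unadjusted p under 0.05, 2 of the 9 were higher and 0 lower in either CLP group against Sham-Sham, and 0 higher and 1 lower in Burn-CLP against Sham-CLP.

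The share of all tested probe sets at an unadjusted p under 0.05 was 11.7% in Sham-CLP against Sham-Sham, 19.9% in Burn-CLP against Sham-Sham and 9.09% in Burn-CLP against Sham-CLP. Of 24 bicarbonate and proton transporter genes, 12 were tested and 0 were called in any comparison by limma. At an unadjusted p under 0.05, 4 were higher and 2 lower in Burn-CLP against Sham-Sham, 1 was higher and 0 lower in Sham-CLP against Sham-Sham, and 0 were higher and 1 lower in Burn-CLP against Sham-CLP. Slc4a3, an anion exchanger gene, read 124.3, 182.8 and 167 in Sham-Sham, 227.1, 216.2 and 233.7 in Sham-CLP, and 257.9, 262.7 and 260.4 in Burn-CLP. The Burn-CLP difference from Sham-Sham was 0.74 ± 0.18 (adjusted p = 0.0813). Nherf1, which encodes a scaffold of the sodium-proton exchanger, read 1148, 1025 and 1713 in Burn-CLP and 2266, 1942 and 1777 in Sham-Sham (-0.65 ± 0.22, adjusted p = 0.161).

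Car3 is known as a gene of the pericentral part of the liver lobule, so genes of both ends of the lobule were counted. Of 16 pericentral genes 1 rose and 0 fell in Burn-CLP against Sham-Sham, with a median of 0.04. It was Slc1a2, a glutamate transporter gene, which rose by 2.50 ± 0.44 (adjusted p = 0.0421) with 2 Sham-Sham arrays at the floor. Of 14 periportal genes 1 rose and 0 fell, with a median of 0.31. It was Sds, the serine dehydratase gene, which read 2538, 3476 and 819.5 in Sham-Sham and 12560, 17810 and 10510 in Burn-CLP (2.78 ± 0.47, adjusted p = 0.0372). Of all tested probe sets 0.325% rose in this comparison. At an unadjusted p under 0.05, 3 pericentral genes were higher and 3 lower, and 6 periportal genes were higher and 2 lower, beside 19.9% of all probe sets in either direction. In the other 2 comparisons 0 genes of either list were called by limma. At an unadjusted p under 0.05, Sham-CLP against Sham-Sham had 4 pericentral genes higher and 1 lower and 0 periportal genes higher and 1 lower. Burn-CLP against Sham-CLP had 0 and 1, and 3 and 0. The shares of all tested probe sets in these 2 comparisons were 11.7% and 9.09%. Leaving out Sham-Sham 1, or array 1 or 2 of either CLP group, left 0 calls in both lists, and leaving out Sham-Sham 2 left 0 in the pericentral list. Without Sham-Sham 3 the pericentral count was 2, and without Burn-CLP 3 the periportal count was 2. Both lists had 0 calls with the floor at the 10th percentile, without the filter and in a fit of the 2 groups alone. In Sham-CLP against Sham-Sham, 1 pericentral gene was called without Sham-Sham 3.

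**Figure D4:**
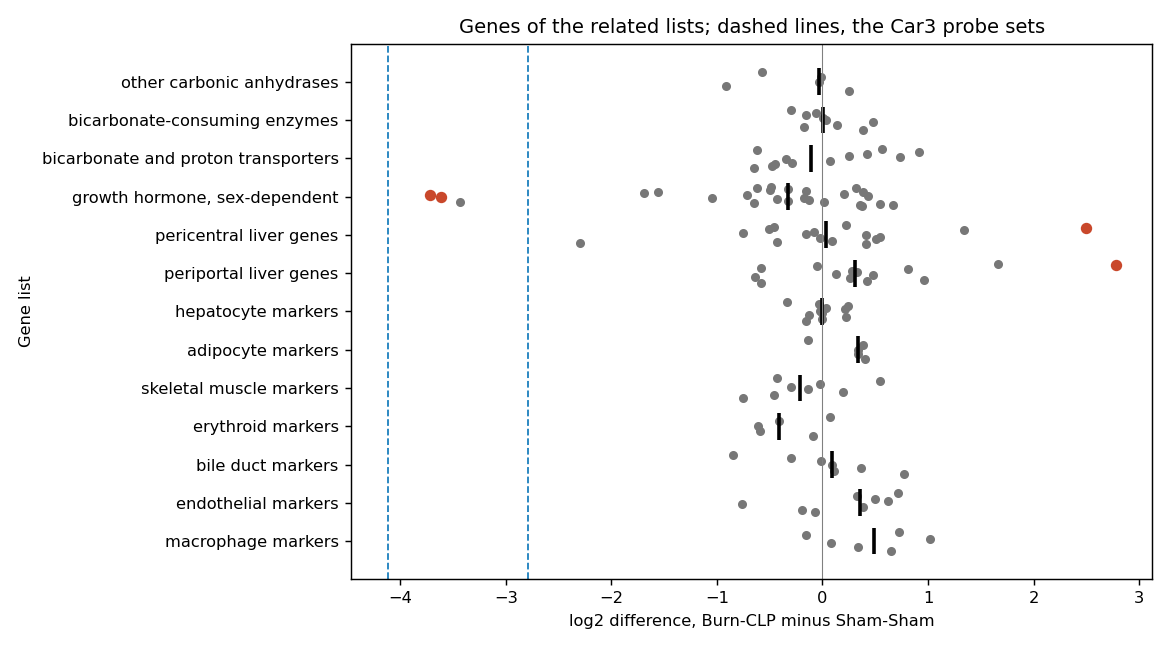
log2 difference between Burn-CLP and Sham-Sham (3 arrays each) for every tested gene of the 13 lists, with 1 probe set per gene; red points passed an adjusted p under 0.05, black bars are list medians and dashed lines are both Car3 probe sets at -4.12 and -2.79. Called genes are Igfals and Hsd17b2 on the left and Slc1a2 and Sds on the right.

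Since fat and muscle also hold much Car3, their markers were measured beside it. Adipocyte markers had a summed signal over 6 genes of 801.2 to 1003, 953.7 to 1312 and 974.3 to 1332 in Sham-Sham, Sham-CLP and Burn-CLP, and the median log2 difference of the 5 tested was 0.34 in Burn-CLP against Sham-Sham. The brightest, Lpl and Cfd, differed by 0.39 ± 0.28 and 0.40 ± 0.29. Muscle markers summed over 13 genes to 5203 to 5893, 4570 to 6662 and 4763 to 7125 in the same order. Most of this was Myh1, at 3558 to 6220 over the 9 arrays, while Myh4, Myh7 and Mb were at the floor on all 9. The 8 tested muscle markers had a median of -0.22 in Burn-CLP against Sham-Sham. Ckm differed by -0.46 ± 0.23 and Atp2a1 by -0.75 ± 0.32, while Myh1 differed by 0.19 ± 0.24 and Tnni2 by 0.545 ± 0.34.

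Red blood cells carry Car1 and Car2. Erythroid markers summed over 7 genes to 13010 to 16270, 11770 to 12930 and 10190 to 12170 in Sham-Sham, Sham-CLP and Burn-CLP, with Rhag at the floor on all arrays. Hbb differed by -0.42 ± 0.16 and Hba-a3 by -0.61 ± 0.24 between Burn-CLP and Sham-Sham, neither passing (adjusted p = 0.207 and 0.204). Ank1 differed by -0.59 ± 0.31, Alas2 by -0.09 ± 0.20 and Slc4a1 by 0.07 ± 0.19. In Burn-CLP against Sham-Sham Car2 differed by -0.37 ± 0.24 at 1386922_at and by -0.07 ± 0.72 at 1367733_at. In Sham-CLP against Sham-Sham it differed by 0.05 ± 0.24 and 0.72 ± 0.72 at the same probe sets. The part of red blood cells was not tested. Bile duct markers, a further Car2 source, summed over 7 genes to 1488 to 1545, 1407 to 1553 and 1456 to 1993. The brightest, Epcam and Aqp1, differed by 0.11 ± 0.24 and 0.78 ± 0.23 between Burn-CLP and Sham-Sham, while Spp1 differed by -0.85 ± 0.30 without overlap, and the median of the 7 was 0.09. Endothelial markers, a source of Car4, summed over 8 genes to 3393 to 3949, 2967 to 3473 and 2867 to 3859, with Kdr at -0.76 ± 0.28 and Lyve1 at 0.62 ± 0.34. The median of the 8 was 0.36 in Burn-CLP against Sham-Sham. Eng (-0.19 ± 0.19) and Emcn (-0.07 ± 0.17) were below 0 as well, while Vwf, Pecam1, Flt1 and Ramp2 were above it. Macrophage markers summed over 6 genes to 12630 to 13230, 12470 to 14390 and 13100 to 17090, with Ctsb at -0.15 ± 0.15 and Cd14 at 0.65 ± 0.30. Their median was 0.49, with Csf1r at 1.02 ± 0.32 and Lyz2 at 0.73 ± 0.28, and Ctsb was the 1 gene of the 6 below 0. In none of these 7 marker lists, hepatocytes included, was a gene called in any comparison (0) by limma. At an unadjusted p under 0.05, of 50 tested markers 1 was higher and 3 lower in Sham-CLP against Sham-Sham, 3 higher and 5 lower in Burn-CLP against Sham-Sham, and 3 higher and 0 lower in Burn-CLP against Sham-CLP. Of all tested probe sets 11.7%, 19.9% and 9.09% reached this in either direction, in the same order.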

How the data were processed

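Total RNA of rat liver was measured on 9 one-colour arrays. The deposited values are linear intensities, already scaled per array. The software with which the authors made them, and any genome build, are not given in the sources used here. Columns were matched to samples by their labels. With limma 3.58.1 in R 4.3.3, intensities were quantile-normalised, floored at the 20th percentile, taken as log2, and fitted (lmFit, eBayes) over all 9 arrays with group as the term. Benjamini-Hochberg adjustment covered 13535 probe sets, called under 0.05. Errors of differences are standard errors of this fit. The fit was tested on simulated data.

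Of 15923 probe sets, 12783 had 1 symbol in the platform annotation, 312 several and 2771 none, and 57 were controls. Symbols of 12748 were updated through Entrez in the GRCr8 RefSeq table. The members and gene lists were chosen with earlier results of these data known. Named genes are all member probe sets, in each list the called genes and those with the 2 smallest p-values in a comparison, the 2 brightest of each marker list, and the 5 probe sets most correlated with each member. Not every gene so listed is described. Some genes outside this rule are named too, such as Pc, Car7, Ank1, Socs2, Cyp2c12 and Onecut1. In lists each gene had 1 probe set, the one with the highest mean. Alternatives were the deposited scaling, a floor at the 10th percentile, no filter, a filter of 6 arrays, a fit of the 2 groups compared, the replicate number as a block, and leaving out each array. With 3 arrays against 3, an exact two-sided permutation test of 1 value cannot go below p = 0.1, so none was used.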

Additional observations from a re-analysis of the deposited data

How the results depend on the processing

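The 15 differences of the 5 tested member probe sets moved by less than 1 SD between replicates (pooled over both groups, log2) under every alternative run (225 of 225 values). This outcome was nearly fixed in advance. Leaving out 1 of 3 arrays can hardly move a group mean that far. The filters, the fit of the 2 groups and the replicate block leave the differences as they were. The count is therefore no measure of robustness. For Car2 this SD is wide beside the differences, and signs changed: at 1367733_at Burn-CLP minus Sham-Sham ran from -0.83 without Sham-Sham 1 to 0.65 without Burn-CLP 1 and Sham-CLP minus Sham-Sham from -0.04 to 1.13, and at 1386922_at Sham-CLP minus Sham-Sham ran from -0.15 to 0.29. How many of all probe sets were called moved more, and the cause was not tested. In Sham-CLP against Sham-Sham the 8 calls became 4 with the deposited scaling and 4 with the replicate block, and 4 to 347 when single arrays were left out, with 347 without Sham-Sham 3. In Burn-CLP against Sham-Sham the 101 calls became 53 with the floor at the 10th percentile, 13 in a fit of the 2 groups and 59 with the replicate block, and 19 to 645 when single arrays were left out, with 19 without Burn-CLP 1 or Burn-CLP 2, 645 without Sham-Sham 3 and 221 without Burn-CLP 3. In Burn-CLP against Sham-CLP the 2 calls became 1 with the deposited scaling, 4 with the lower floor, 4 without the filter, and 0 with the stricter filter, with the 2 groups alone and with the replicate block, and 0 to 36 when single arrays were left out, with 36 without Burn-CLP 3. Counts for the gene lists stayed within 1.5 times in 550 of 585 values. Most of the main counts were 0, and a 0 that stayed 0 was scored as unchanged. This number is therefore no measure of robustness either, and the lists with calls moved as described above. Deviations from group means correlated at -0.026 to 0.081 between same-numbered arrays of different groups (9 pairs, 0 over 0.1). Between arrays of other numbers they correlated at -0.072 to 0.037 (18 pairs). An array correlated best with its own number in 13 of 18 cases, where 1 in 3 would be so without any link, and the cases are not independent. The labels name no pairing or batch. Whether same-numbered arrays were handled together is not known, and the main fit left the number out. The number of arrays and signals near the floor, as for Car4 and 1 Car2 probe set, limit what can be measured.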
